A study of Mus musculus with 8 samples.

Results

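The proteasome genes described here are those whose symbol starts with Psma, Psmb, Psmc, Psmd, Psme, Psmf or Psmg followed by a number, leaving out annotated pseudogenes. The pattern matched 55 rows of the gene tables, 5 of them pseudogenes, which left 50 of 55487 genes. Of these, 49 fall into 7 classes by their place in the particle. The remaining gene, Psmc3ip, is a meiotic recombination factor that shares only the name pattern, and it had 0 to 1 counts per library. Transcripts were measured by polyA RNA sequencing in blood platelets from 8 male mice aged 13 weeks, 4 of them wild type (WT) and 4 littermates heterozygous for the DNA methyltransferase gene Dnmt3a (Dnmt3a+/-), with 1 library per mouse. Platelets were taken from cardiac blood by differential centrifugation and depleted of Ter119-positive and CD45-positive cells with beads. The sources used here do not say how the Dnmt3a allele was made or in which tissues it is lost. The study's title places the platelets in work on how DNMT3A affects the choice of blood stem cells for the megakaryocyte lineage, so the comparison asks whether these transcripts differ in platelets when an allele is missing.

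The proteasome degrades proteins tagged with ubiquitin. Its barrel-shaped core is built from outer rings of alpha subunits, which gate the entrance, and inner rings of beta subunits, some of which carry the cutting sites. A cap made of a base with ATPases and a lid with a deubiquitinase recognises, strips and unfolds the tagged protein. In the immunoproteasome the catalytic beta subunits are replaced by inducible forms that interferon raises and that shape peptides for MHC class I. Platelets have no nucleus and carry RNA made by the megakaryocyte, and drugs that inhibit the proteasome are known to lower platelet counts.

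Each library had between 15185218 and 22160394 counts, and the 49 proteasome genes together took 415 to 534 TPM (a transcript level corrected for transcript length and library size). Dnmt3a, the targeted gene, was counted 332, 408, 315 and 279 times in WT, taking replicates 1 to 4 in order, and 151, 186, 399 and 450 times in Dnmt3a+/-. In CPM (counts scaled to library size with TMM factors, with no correction for length), Dnmt3a in Dnmt3a+/- replicates 3 and 4 was at 24.2 and 19.5, above and within the WT range of 18.2 to 22.1, and groups are named below by their labels. The 6 platelet markers took 3.21% to 3.94% of counts in every library. Red cell and reticulocyte markers stood at 2.03% of the counts of WT replicate 1, against 0.203% to 0.486% elsewhere. Hepatocyte markers differed most between libraries, with 145, 4625, 18105 and 13915 counts in WT and 1104, 7, 1758 and 6 counts in Dnmt3a+/-. All 5 of these markers had a negative log2 fold change with an unadjusted p under 0.05 by edgeR, with a median of -3.73 and a smallest adjusted p of 0.647, and their part in the results below was not tested. The pan-leukocyte list took 0.143% to 0.215% of counts, mostly from Laptm5. Neutrophil markers had 2 to 28 counts per library, B cell markers 0 to 11, and monocyte and macrophage markers 38 to 190. The T and NK cell list had 55 to 106 counts, nearly all from Nkg7, while of the genes that define T cells Cd3e and Cd3g were at 0 throughout and Cd3d had 2 counts in WT replicate 2. WT replicate 3 had 27.7% of its TPM in mitochondrially encoded genes, against 17.9% to 20.7% in the others. In such bulk samples, fewer platelets with a transcript and less of it per platelet cannot be told apart.

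Promoters of the genes were read from RefSeq (GRCm38.p6) to show the letters upstream of core and cap genes. Of the 49 genes, 41 had a window in that table (44 windows of 300 bases, from 250 before to 50 after a start). On both strands, TGACNNNGC, the core of the antioxidant response element that Nrf1 and Nrf2 bind, occurred in 6 of the 44 windows (13.6%), against 12.4% of all 32851 windows. An interferon-type element that IRF factors bind, spelled GAAA, then 2 bases of any kind, then GAAA, occurred in 5 of the 44 windows (11.4%), against 3.44% of all windows. The stretches shown are 60 bases each, all upstream of the start, with the match in capitals. They were chosen because they hold a match outside annotated exons in genes from the core, the base, the lid and the chaperones. The first 5 hold TGACNNNGC. In the Psmc6 and Psmd12 stretches the element lies on the opposite strand and reads as its reverse complement. The last 2, Psmd4 and Psmb3, hold the interferon-type element on the opposite strand.
Psmb5, the chymotrypsin-like core subunit, chr14:54618026-54618085, minus strand: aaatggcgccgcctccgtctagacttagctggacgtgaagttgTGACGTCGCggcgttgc
Psmb6, the caspase-like core subunit, chr11:70525297-70525356, plus strand: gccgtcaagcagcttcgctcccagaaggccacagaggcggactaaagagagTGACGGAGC
Psmc6, an ATPase of the base, chr14:45329574-45329633, plus strand: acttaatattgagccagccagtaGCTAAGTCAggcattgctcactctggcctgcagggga
Psmd12, a lid subunit, chr11:107479278-107479337, plus strand: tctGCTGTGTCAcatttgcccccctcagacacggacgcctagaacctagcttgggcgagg
Psmd9, a base assembly chaperone, chr5:123228130-123228189, plus strand: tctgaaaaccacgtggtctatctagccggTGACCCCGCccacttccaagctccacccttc
Psmd4, the ubiquitin receptor of the cap, chr3:95042660-95042719, minus strand: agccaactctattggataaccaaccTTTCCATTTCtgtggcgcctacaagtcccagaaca
Psmb3, a core subunit without a cutting site, chr11:97703246-97703305, plus strand: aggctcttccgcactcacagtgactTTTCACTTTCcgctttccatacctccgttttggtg
The other TGACNNNGC match was in Psme4, and the other matches to the interferon-type element were in Psmd9, Psmg4 and Psme1. In Psmd9, the only gene with both, the matches did not overlap. Levels of the 6 genes with TGACNNNGC ran from a mean of 0.54 TPM for Psmd12 to 24.0 TPM for Psmb5. The 4 windows of the inducible beta class held neither element, which says only that these letters are not in those windows.

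Although the particle is built from fixed numbers of each subunit, the transcripts of its subunits differed widely in level. Over all 8 libraries, 15 of the 49 genes had a mean of at least 10 TPM, 20 lay between 1 and 10 TPM, and 14 were under 1 TPM. The median was 2.71 TPM. Psma3, an alpha subunit, was the highest at 62.5 TPM and ranked 816 among all genes. It was followed by the activator gene Psme1 at 50.2 TPM, the ubiquitin receptor gene Psmd4 at 46.8 TPM, the ATPase gene Psmc3 at 38.1 TPM, and the lid genes Psmd11 and Psmd8 at 37.7 and 31.3 TPM. Across the 40 genes that passed the filter on low counts, the highest level was 115-fold the lowest, that of the lid gene Psmd12. High and low transcripts were found within the core and within the cap alike.

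**Figure D1:**
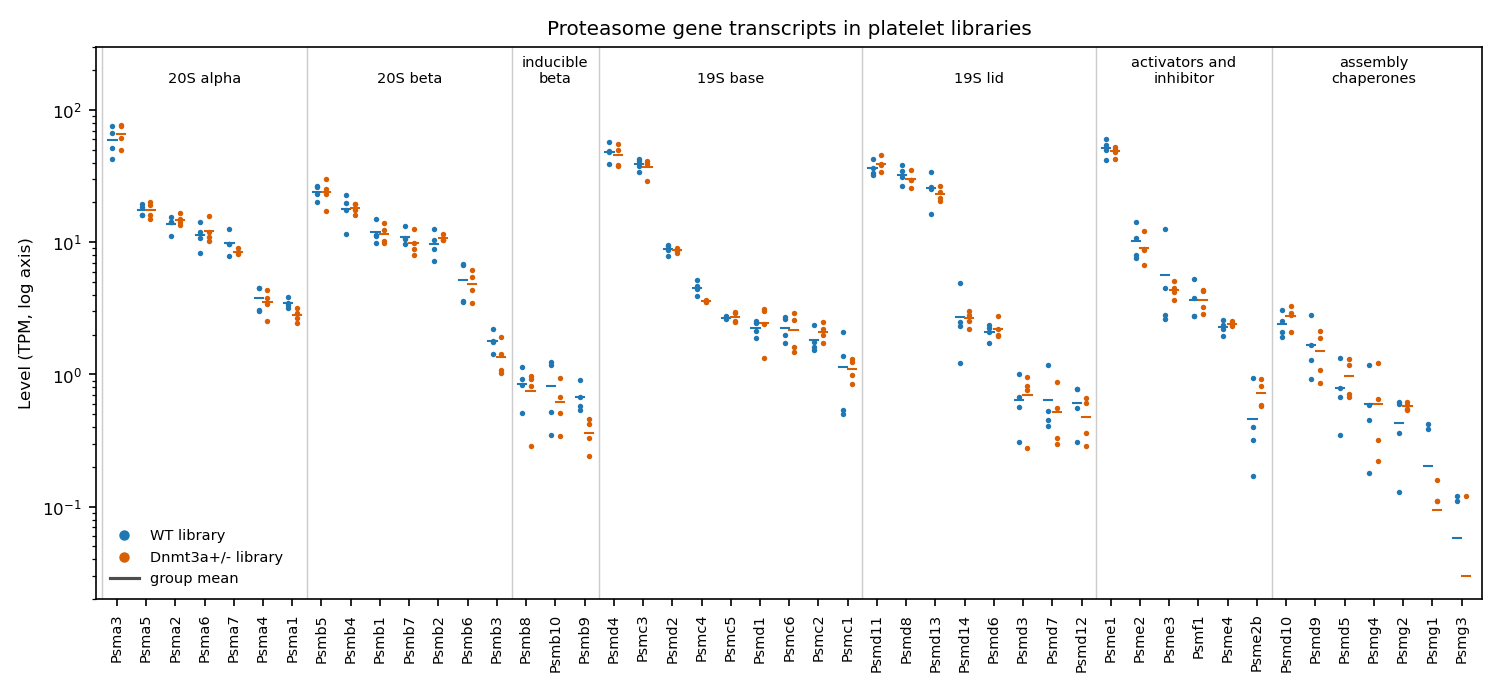
Level of each proteasome gene in TPM (log axis) in the 4 WT and 4 Dnmt3a+/- libraries, grouped by class and ordered by mean; points are libraries, short bars are group means, values of 0 cannot be drawn on the log axis, and Psma8 and Psmb11, at 0 in every library, are left out. Levels spread over 19.9-fold within the alpha genes and 69.5-fold within the lid genes, while the genotypes overlap for all genes drawn except Psmc4 and Psmb9. Of all genes that passed the filter on low counts, 1.82% do not overlap in TPM, and Psmb9 did not pass it.

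The comparison of genotypes was run over all 7362 genes that passed the filter, with edgeR's quasi-likelihood test and Benjamini-Hochberg adjustment. None of the 40 proteasome genes tested passed an adjusted p of 0.05, and 0% of all genes did. The smallest adjusted p among the 40 was 0.951 by edgeR, and the smallest over all genes was 0.128. At an unadjusted p under 0.05, 1 of the 40 (2.5%) was called, against 4.92% of all genes tested. The gene called was lower in Dnmt3a+/-, as 3.19% of all genes were. Among all genes, 15 (0.164%) passed by DESeq2, 1.35% passed without the filter, 1.75% without WT replicate 1 and 0.013% without Dnmt3a+/- replicate 2, and none of these was a proteasome gene. The fold changes were small, from -0.58 for Psme3 to 0.17 for Psmd14 on the log2 scale (Dnmt3a+/- minus WT). Of the 40, 28 had a negative fold change (70%), against 51% of all genes, with a median of -0.10 against -0.0050. That median lay at -0.025 without WT replicate 1. It lay at -0.16 without Dnmt3a+/- replicate 1.

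**Figure D2:**
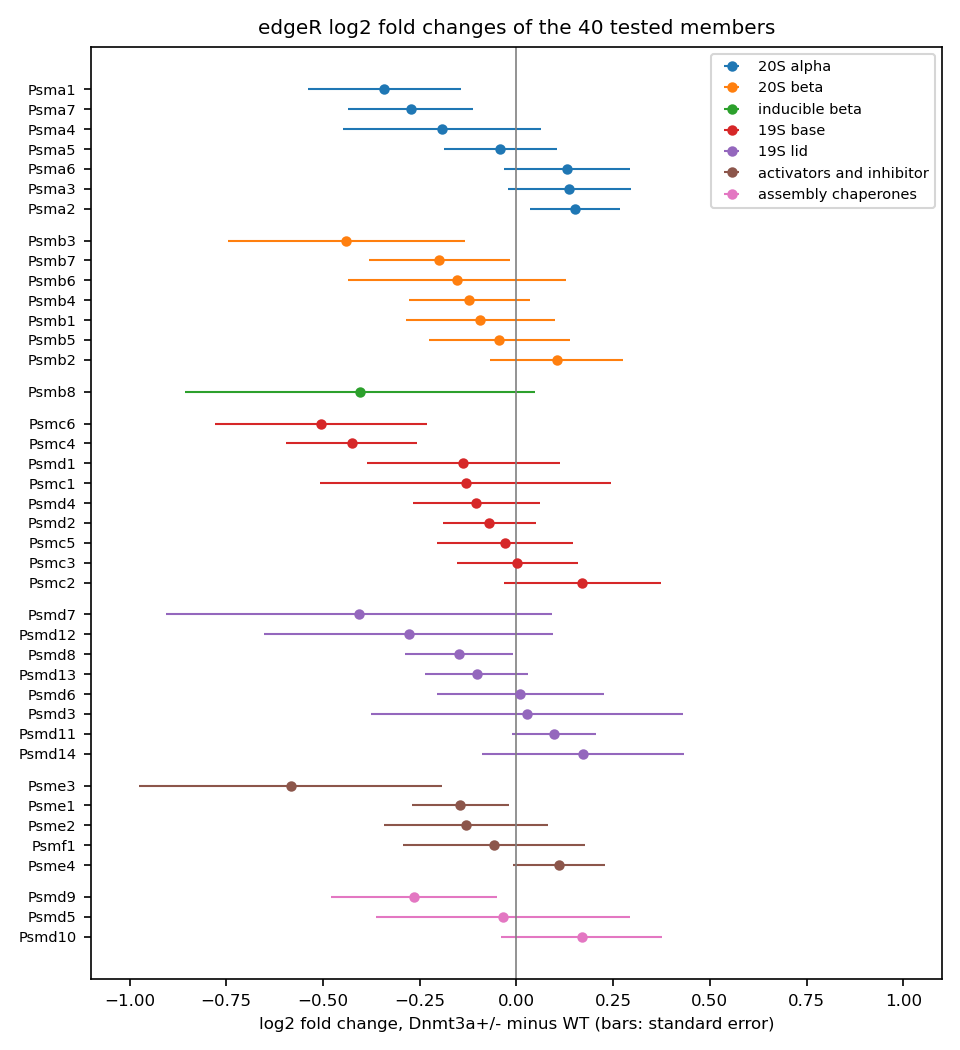
Log2 fold change (Dnmt3a+/- minus WT) of the 40 tested proteasome genes by class, from edgeR, with bars of 1 standard error. Of the 40 points 28 lie below 0, and the range runs from -0.58 for Psme3 to 0.17 for Psmd14.

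The alpha ring genes included the highest transcript of the family. Psma3, which encodes alpha7, was present at 42.4, 66.5, 51.6 and 76.3 TPM in WT replicates 1 to 4 and at 49.6, 75.7, 61.3 and 76.5 TPM in Dnmt3a+/- replicates 1 to 4. Replicate 1 was lowest in both groups, and the groups overlapped. Psma3 had a log2 fold change of 0.14 with a standard error of 0.16 (edgeR adjusted p = 0.998). Psma5 and Psma2, which encode alpha5 and alpha2, followed at 17.5 ± 1.65 and 13.8 ± 1.86 TPM in WT (SD, n = 4), and Psma6, Psma7 and Psma4 lay at 11.3, 9.96 and 3.76 TPM. Psma1 was the lowest alpha gene measured, at 3.47 ± 0.28 TPM in WT and 2.82 ± 0.32 TPM in Dnmt3a+/- (SD, n = 4). Its log2 fold change was -0.34 with a standard error of 0.20 (edgeR adjusted p = 0.998). Psma8, which replaces alpha4 in the testis, had 0 counts in all 8 libraries, where a count of 0 allows up to 3 expected counts. Of the 7 alpha genes tested, 4 had a negative and 3 a positive fold change, with a median of -0.04. The median turned to 0.014 without WT replicate 1, to 0.024 without Dnmt3a+/- replicate 2 and to 0.0056 without Dnmt3a+/- replicate 3.

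Among the beta ring genes that carry no cutting site, Psmb4 (beta7) was the highest at 17.9 ± 4.84 TPM in WT and 18.1 ± 1.65 TPM in Dnmt3a+/- (SD, n = 4). Psmb1 and Psmb2, for beta6 and beta4, lay at 11.9 ± 2.25 and 9.79 ± 2.28 TPM in WT (SD, n = 4). Within libraries, Psmb1 was the higher of the pair in every WT library but the lower in Dnmt3a+/- replicates 2 and 4. Psmb3, for beta3, was the lowest beta gene, at 1.77, 2.19, 1.44 and 1.78 TPM in WT and 1.42, 1.02, 1.08 and 1.92 TPM in Dnmt3a+/-. The groups overlapped for Psmb3, whose 9 to 24 counts per library give it a wide error, and its log2 fold change was -0.44 with a standard error of 0.31 (edgeR adjusted p = 0.998). Of the 7 constitutive beta genes, 6 had a negative fold change and Psmb2 a positive one, with a median of -0.12. The median was 0.0022 without WT replicate 1.

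The catalytic subunits come in constitutive and inducible pairs, and platelet libraries held far more of the constitutive transcript in each pair. Psmb5 encodes beta5, the chymotrypsin-like site and the main target of proteasome inhibitor drugs. It was present at 26.8, 26.3, 20.2 and 23.2 TPM in WT replicates 1 to 4 and at 30.2, 23.1, 25.3 and 17.3 TPM in Dnmt3a+/- replicates 1 to 4. Dnmt3a+/- libraries held both the highest and the lowest value, and the means of 24.1 ± 3.07 and 24.0 ± 5.35 TPM (SD, n = 4) differed by less than the spread between libraries. Its inducible partner Psmb8 (beta5i; chr17:34197721-34201454, plus strand, GRCm38) was at 0.83, 0.92, 0.51 and 1.14 TPM in WT and 0.82, 0.98, 0.29 and 0.92 TPM in Dnmt3a+/-. These levels rest on 3 to 18 counts per library. Psmb8 had a log2 fold change of -0.40 with a standard error of 0.45 (edgeR adjusted p = 0.998), with overlapping groups. The fold change was -0.11 without Dnmt3a+/- replicate 3, -0.24 without WT replicate 2 and -0.69 without Dnmt3a+/- replicate 2. With limma on log2(TPM + 1), where the added 1 TPM shrinks changes at low levels, it was -0.09.

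Psmb7 encodes beta2, the trypsin-like site, and lay at 10.7, 10.5, 9.79 and 13.2 TPM in WT and 12.7, 9.89, 8.87 and 8.03 TPM in Dnmt3a+/-. Its partner Psmb10 (beta2i; chr8:105935735-105938444, minus strand, GRCm38) was at 0.35, 1.17, 1.25 and 0.52 TPM in WT and 0.51, 0.68, 0.34 and 0.94 TPM in Dnmt3a+/-. With 2 to 12 counts per library, Psmb10 did not pass the filter, and neither group was uniformly high or low. Fitted without the filter, its log2 fold change was -0.67 with a standard error of 0.66 (edgeR adjusted p = 0.793).

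Psmb6 encodes beta1, the caspase-like site, and lay at 6.74, 6.83, 3.56 and 3.62 TPM in WT and 6.14, 5.44, 4.38 and 3.47 TPM in Dnmt3a+/-. WT replicates 1 and 2 held the highest values, and the groups overlapped. Its partner Psmb9 (beta1i; chr17:34181987-34187764, minus strand, GRCm38) was at 0.54, 0.91, 0.68 and 0.58 TPM in WT and 0.33, 0.24, 0.46 and 0.42 TPM in Dnmt3a+/-. All 4 Dnmt3a+/- values of Psmb9 lay below all 4 WT values in TPM, with means of 0.36 ± 0.098 against 0.68 ± 0.17 TPM (SD, n = 4). In TPM, 2 of the 49 genes had groups without overlap. Among the 7362 genes that passed the filter, 1.82% had none, and 0.896% were lower in Dnmt3a+/- without overlap. No such share is given here for genes below the filter, such as Psmb9. On the CPM scale the ranges overlapped, at 0.25 to 0.49 CPM against 0.39 to 0.70 CPM, and the level rests on 4 to 13 counts per library. Psmb9 did not pass the filter, and fitted without it had a log2 fold change of -0.59 with a standard error of 0.57 (edgeR adjusted p = 0.793). Psmb9 also shares 212 exonic bases with the antigen transporter gene Tap1 on the other strand, which had 31 counts in all against 63 for Psmb9. Psmb11, the thymus form beta5t, had 0 counts in every library.

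Within each library, the ratio of the inducible to the constitutive TPM is free of that library's scaling. Psmb9 came to 8.01%, 13.3%, 19.1% and 16.0% of Psmb6 in WT and to 5.37%, 4.41%, 10.5% and 12.1% in Dnmt3a+/-. The groups overlapped, with means of 14.1% ± 4.70 and 8.10% ± 3.78 (SD, n = 4). The difference in log2 ratio was -0.86, with p = 0.114 in an exact two-sided permutation test and 0.343 after Benjamini-Hochberg adjustment over the 3 pairs. Psmb10 was at 7.78% ± 4.87 of Psmb7 in WT and 6.61% ± 3.67 in Dnmt3a+/- (SD, n = 4; exact permutation p = 0.886, adjusted 0.886). Psmb8 was at 3.51% ± 1.02 of Psmb5 in WT and 3.35% ± 1.82 in Dnmt3a+/- (SD, n = 4; exact permutation p = 0.743, adjusted 0.886). The largest ratio in any library was 19.1%, so the constitutive transcript exceeded the inducible one in all 8 libraries and all 3 pairs. With 4 libraries against 4, the smallest p this test can give is 0.0286.

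**Figure D3:**
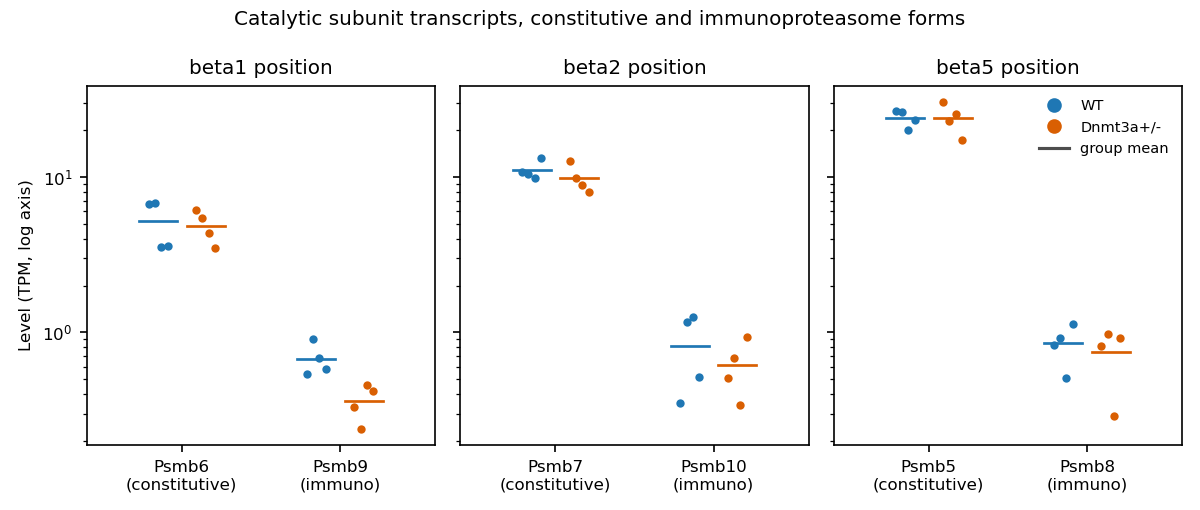
Levels in TPM (log axis) of the constitutive and the inducible gene of each catalytic pair in the 8 libraries, with points for libraries coloured by genotype. Every inducible value lies below the constitutive value of its pair in the same library. Psmb9 is the inducible gene whose 2 genotypes do not overlap in TPM, though they overlap in CPM. It did not pass the filter, and 1.82% of the genes that did have no overlap in TPM.

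The base of the cap holds the ATPases that unfold the substrate, and its transcripts ranged over 42.0-fold. Psmd4, for the ubiquitin receptor Rpn10, was the highest, at 57.0, 49.4, 38.9 and 47.8 TPM in WT replicates 1 to 4 and 55.0, 38.5, 50.3 and 37.7 TPM in Dnmt3a+/- replicates 1 to 4. Replicate 1 was highest in both groups, and the groups overlapped. The ATPase genes were unequal: Psmc3 (Rpt5) lay at 38.9 ± 3.90 TPM in WT (SD, n = 4), while Psmc4, Psmc5, Psmc6, Psmc2 and Psmc1 lay at 4.54, 2.70, 2.25, 1.82 and 1.13 TPM. Psmd2 and Psmd1, the large scaffold subunits Rpn1 and Rpn2, were at 8.88 ± 0.77 and 2.26 ± 0.30 TPM in WT (SD, n = 4). Psmc1, for Rpt2, was the lowest base gene and varied from 0.50 to 2.11 TPM, with both extremes in WT libraries. Psmc5, for Rpt6, was the steadiest of the 40 tested genes, with an SD of 0.094 over the 8 libraries in log2(CPM + 0.5), at 2.61 to 2.75 TPM in WT and 2.48 to 2.98 TPM in Dnmt3a+/-.

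Psmc4, the ATPase Rpt3 (chr7:28041707-28050101, minus strand, GRCm38), was the tested proteasome gene whose genotypes did not overlap. It was at 5.19, 4.63, 3.91 and 4.41 TPM in WT replicates 1 to 4 and at 3.61, 3.52, 3.69 and 3.52 TPM in Dnmt3a+/- replicates 1 to 4. All 4 Dnmt3a+/- values were below all 4 WT values in TPM, and also in CPM, where they ran from 3.26 to 4.35 against 4.69 to 6.24. The means were 4.54 ± 0.53 TPM in WT and 3.59 ± 0.082 TPM in Dnmt3a+/- (SD, n = 4), from 65 to 98 counts per library. Its log2 fold change was -0.43 with a standard error of 0.17, with unadjusted p = 0.0292 and adjusted p = 0.951 by edgeR over all genes, so it did not pass. Such a count of 1 among 40 is 2.5%, against 2.54% of all tested genes without overlap in CPM and 1.82% in TPM. Counting only genes lower in Dnmt3a+/-, these shares were 1.17% and 0.896%. Across the alternatives its fold change ran from -0.47 to -0.27, and its smallest adjusted p was 0.628 by edgeR. Of the 9 base genes, 7 had a negative fold change, with a median of -0.10. Leaving out libraries 1 at a time moved that median between -0.11 and -0.02, the latter without WT replicate 1.

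The lid was the class with the widest range of transcripts. Psmd11 (Rpn6), Psmd8 (Rpn12) and Psmd13 (Rpn9) stood at 36.2 ± 4.90, 32.5 ± 4.94 and 25.6 ± 7.33 TPM in WT (SD, n = 4). Psmd14, which encodes the deubiquitinase Rpn11, was at 1.23, 4.89, 2.51 and 2.31 TPM in WT and at 2.84, 2.56, 2.22 and 3.01 TPM in Dnmt3a+/-. WT libraries held both its lowest and its highest value. Psmd6 (Rpn7) lay at 2.10 ± 0.28 TPM in WT, and Psmd3, Psmd7 and Psmd12, for Rpn3, Rpn8 and Rpn5, lay at 0.64, 0.64 and 0.61 TPM, with 6 to 28 counts per library. Rpn8 is the partner of Rpn11 in the particle, and its transcript was lower in TPM than that of Rpn11 in every library. The lid genes Psmd11 and Psmd12 had log2 fold changes of 0.10 with a standard error of 0.11 and -0.28 with a standard error of 0.37 (edgeR adjusted p = 0.998 for each). Of the 8 lid genes, 4 had a positive and 4 a negative fold change. Their median of -0.05 became 0.11 without WT replicate 3. Psmd13 shares 342 exonic bases with Sirt3 on the other strand, which had 9466 counts in all against 3539 for Psmd13, and the sources used here do not state whether counting used strand.

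The activators open the gate of the core without ubiquitin. Psme1 (PA28 alpha) was the second most abundant transcript of the family, at 60.7, 49.9, 42.1 and 54.4 TPM in WT and 50.9, 42.8, 48.3 and 52.8 TPM in Dnmt3a+/-. Its partner in the same interferon-inducible ring, Psme2 (PA28 beta), was lower, at 10.2 ± 3.02 TPM in WT and 9.12 ± 2.23 TPM in Dnmt3a+/- (SD, n = 4). The groups overlapped for both, with log2 fold changes of -0.14 (standard error 0.12) and -0.13 (standard error 0.21; edgeR adjusted p = 0.998 for each). Without WT replicate 1 these were -0.04 for Psme1 and 0.03 for Psme2, and without Dnmt3a+/- replicate 3 Psme2 was at 0.01. Psme2b is a copy 99.4% identical to Psme2 over 794 bases and had 50 counts in all against 688, so the division of reads between them is uncertain. Psme4 (PA200, a large nuclear activator) was at 2.28 ± 0.27 TPM in WT and 2.43 ± 0.088 TPM in Dnmt3a+/- (SD, n = 4). Psmf1, the inhibitor PI31, was at 3.67 ± 1.19 and 3.68 ± 0.75 TPM (SD, n = 4), with a log2 fold change of -0.06 that turned to 0.14 without WT replicate 1.

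Psme3 (chr11:101316213-101323537, plus strand, GRCm38) encodes the nuclear activator PA28 gamma and was the most variable of the tested genes, with an SD of 0.59 in log2(CPM + 0.5). Its level was 12.6, 2.61, 2.81 and 4.53 TPM in WT replicates 1 to 4 and 4.52, 5.11, 3.64 and 4.24 TPM in Dnmt3a+/- replicates 1 to 4. WT replicate 1 stood alone, with 237 counts against 64 to 96 in the other libraries. WT replicate 1 was also the library with 2.03% of its counts in red cell and reticulocyte markers, and the part of these cells in the result was not tested. The log2 fold change of -0.58 (standard error 0.39, edgeR adjusted p = 0.998) became 0.10 without WT replicate 1. Of the 5 activator and inhibitor genes tested, 4 had a negative fold change, with a median of -0.13 that also became 0.10 without that library.

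The assembly chaperones within the name pattern, which build the particle and leave it, had a median level of 0.60 TPM, next to 0.62 TPM for the inducible beta class. Of the chaperones of the base, Psmd10 (gankyrin) was at 2.41 ± 0.52 TPM in WT and 2.78 ± 0.50 TPM in Dnmt3a+/-, and Psmd5 at 0.79 ± 0.41 and 0.97 ± 0.32 TPM (SD, n = 4). The groups overlapped for both, with log2 fold changes of 0.17 (standard error 0.21) and -0.03 (standard error 0.33; edgeR adjusted p of 0.998 for each). Psmd9, the other base chaperone, ranged from 0.86 to 2.83 TPM over the 8 libraries. Of the chaperones of the core, Pomp falls outside the name pattern and had a mean of 61.7 TPM over the 8 libraries. Those within it, Psmg1, Psmg2, Psmg3 and Psmg4, had 0 to 12 counts per library and did not pass the filter. Together with Psma8, Psmb9, Psmb10, Psmb11 and Psme2b they make up the 9 classed genes not tested.

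Several of the tested genes were high or low in the same libraries. WT replicate 1 was the highest of the 8 libraries for 14 of the 40 genes and the lowest for 7, and Dnmt3a+/- replicate 4 was the lowest for 12. WT replicate 1 and Dnmt3a+/- replicate 1 were together the 2 highest libraries in CPM for 7 genes: Psma5, Psmb1, Psmb5, Psmd4, Psmd8, Psmd13 and Psmf1. They were together the 2 lowest for Psma3 and Psma6. Dnmt3a+/- replicates 2 and 4 were together the 2 lowest for 5 genes, Psmb1, Psmb5, Psmd4, Psmd8 and Psme1, 4 of which are among the 7. For Psmd4 this gave 60.2, 46.4, 43.3 and 48.7 CPM in WT and 58.0, 38.1, 51.5 and 37.3 CPM in Dnmt3a+/-. These libraries were singled out after their values were seen. WT replicate 1 and Dnmt3a+/- replicate 1 also had the highest shares of counts in red cell and reticulocyte markers, 2.03% and 0.486%, whose part in the pattern was not tested.

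**Figure D4:**
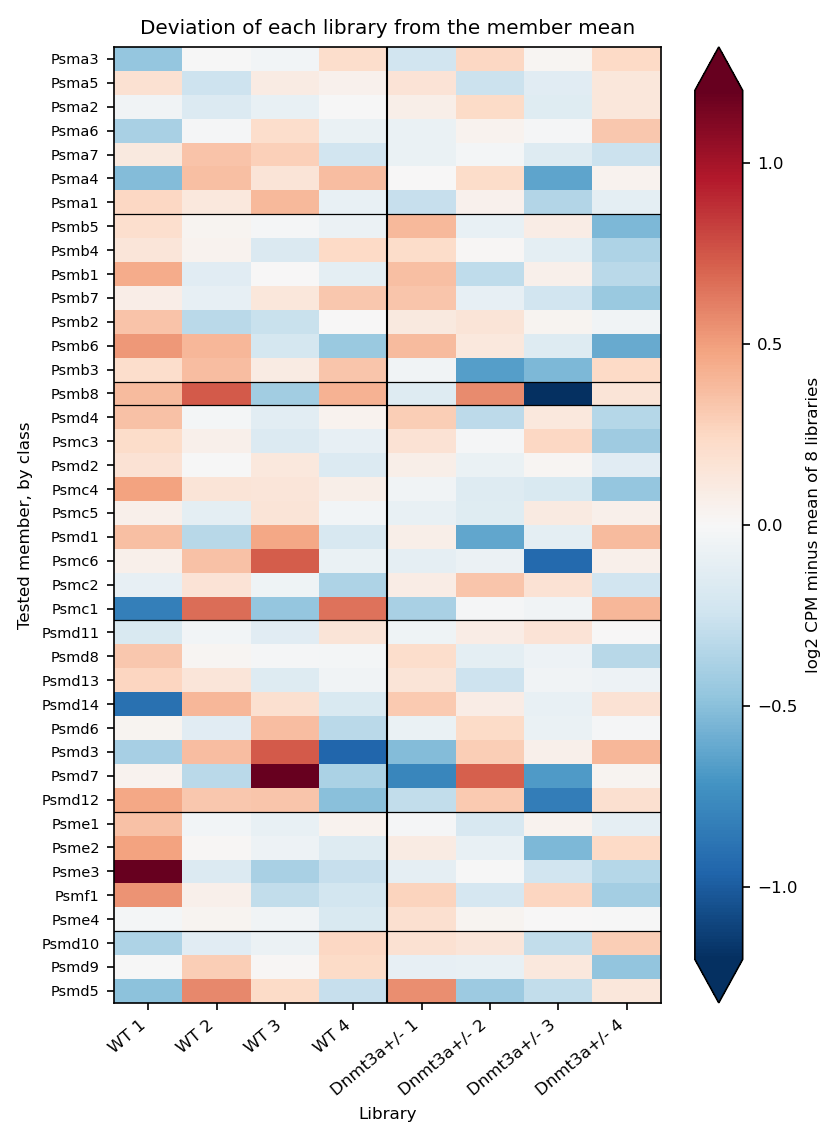
Log2 level (CPM) of each tested proteasome gene in each library relative to that gene's mean over the 8 libraries, with rows for genes by class and columns for libraries; red is above and blue below the gene's mean. Psme3 in WT replicate 1 is among the strongest cells, and the columns differ from each other within a genotype as well as between genotypes.

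Other genes of the pathway gave the same count of calls by edgeR, none after adjustment. Of 11 proteasome-associated genes tested, 4 had a positive and 7 a negative log2 fold change, with a median of -0.08. Among them Pithd1, a proteasome-binding protein, was the highest at 102 ± 11.8 TPM in WT and 107 ± 10.2 TPM in Dnmt3a+/- (SD, n = 4). Pomp, the chaperone that matures the beta ring, was at 62.9 ± 5.59 and 60.5 ± 6.04 TPM (SD, n = 4), about as high as Psma3. Akirin2, which brings proteasomes into the nucleus, was at 8.69 ± 2.31 TPM in WT and 11.5 ± 0.52 TPM in Dnmt3a+/- (SD, n = 4). Its log2 fold change was 0.37 with a standard error of 0.16, unadjusted p = 0.0406 and adjusted p = 0.986 by edgeR, and its groups overlapped. Akirin2 was the 1 of the 11 (9.09%) with an unadjusted p under 0.05, against 4.92% of all genes tested. No tested gene of the other pathway lists below had one.

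Of 15 ubiquitin and shuttle genes tested, 8 had a positive and 7 a negative log2 fold change, with a median of 0.02. The polyubiquitin gene Ubb was the highest, at 1291 ± 383 TPM in WT and 1275 ± 454 TPM in Dnmt3a+/- (SD, n = 4). Among 12 genes that regulate proteasome transcription, 9 had a positive and 3 a negative fold change, with a median of 0.19. That is 25% negative, against 51% of all genes tested, whose median was -0.0050. None of the 12 had an unadjusted p under 0.05 by edgeR. Nfe2l2, which encodes Nrf2, was their highest at 21.8 ± 2.90 TPM in WT and 27.3 ± 8.02 TPM in Dnmt3a+/-, and Nfe2l1, which encodes Nrf1, was at 4.40 ± 1.40 and 5.16 ± 1.08 TPM (SD, n = 4). Foxo3, a forkhead factor, was the 1 of the 12 whose groups did not overlap in CPM, where 2.54% of all genes did not, and its groups overlapped in TPM. It had a log2 fold change of 0.31 and a standard error of 0.15 (edgeR adjusted p = 0.987).

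Genes that turn on or use the immunoproteasome were also unequal in level. Of 7 interferon pathway genes tested, 4 had a positive and 3 a negative log2 fold change, with a median of 0.03. The kinase gene Jak1 was the highest at 123 ± 15.6 TPM in WT and 137 ± 7.33 TPM in Dnmt3a+/- (SD, n = 4), whereas the transcription factor gene Irf1 lay at 0.49 ± 0.081 and 0.57 ± 0.41 TPM and Nlrc5, the class I transactivator, had 1 to 15 counts per library. Of 11 antigen processing genes tested, 3 had a positive and 8 a negative fold change (72.7% negative, against 51% of all genes), with a median of -0.15. None of the 11 had an unadjusted p under 0.05 by edgeR. B2m, the light chain of MHC class I, was at 22305 ± 1051 TPM in WT and 25579 ± 5481 TPM in Dnmt3a+/- (SD, n = 4). The peptide transporter gene Tap1 had 0 to 8 counts per library.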

How the data were processed

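The authors deposited a table of RSEM-type estimated counts per gene, all of them whole numbers, and a table of TPM per gene for the same 8 libraries. The submitters' processing notes name cutadapt, STAR, RSEM, DESeq2 and the build mm10, with no roles or versions. The annotation release and strand setting are not given in the sources used here. Libraries were stranded polyA libraries, per the labels' protocols.

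From the counts, genes were filtered with edgeR's filterByExpr (minimum count 10, minimum total 15), scaled by TMM, and tested with glmQLFit and glmQLFTest (edgeR 4.0.16, R 4.3.3), with Benjamini-Hochberg adjustment over the 7362 genes kept and a threshold of 0.05. The biological coefficient of variation was 0.248. Levels are compared between genes only in TPM. The 3 catalytic ratios were tested with an exact permutation test over 70 arrangements. Alternatives were other scaling factors, DESeq2 1.42.0, no filter, limma 3.58.1 on log2(TPM + 1), a replicate block and leaving out each library. The script was tested on simulated data. No 2 libraries agreed within sampling noise.

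Named genes are the catalytic pairs, the highest and lowest tested gene of each class by TPM, genes with an unadjusted p under 0.05 or groups without overlap, the most and least variable gene, the activators, the inhibitor, tissue forms, genes that did not pass the filter, and the highest or called genes of each pathway list. Others were added after their values were seen. The members and lists were chosen with earlier results of these data known. Gene positions come from GENCODE M21 (GRCm38), and copies from blastn 2.17.0 (at least 95% identity over 200 bases). By that search 10 of the 49 genes have a near-identical copy elsewhere, and 5 more matched only a gene that overlaps their own exons. A planned alignment of the catalytic proteins was not run. Promoters are those of RefSeq on GRCm38.p6, matched by symbol.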

Additional observations from a re-analysis of the deposited data

Results flagged for a closer look

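Of 96 groups of 4 values checked for a library far from the others, 3 held one, where chance gives about 1 in 20. The summed level of the proteasome genes in WT replicate 3 was 415 TPM, against 514 to 534 TPM in the other WT libraries. That library had 27.7% of its TPM in mitochondrially encoded genes. Without those genes its sum was 574 TPM, against 626 to 661 TPM in the other WT libraries. Psme3 in WT replicate 1 was at 15.1 CPM, with the nearest WT library at 4.71 CPM. Psme4 in Dnmt3a+/- replicate 1 was at 15.2 CPM, with the nearest Dnmt3a+/- library at 13.6 CPM.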

How the results depend on the processing

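No proteasome gene named here passed the threshold under any of the 14 settings. Over all genes, DESeq2 called 15 lower, and the fit with no filter called 4 higher and 246 lower. Leaving out a library gave 0 to 1 genes higher and 0 to 134 lower, with 134 lower and 1 higher without WT replicate 1, and 1 lower without Dnmt3a+/- replicate 2. On log2(TPM + 1) with limma, the median log2 fold change was -0.028 for all tested proteasome genes and 0.15 for the assembly chaperones. The added 1 TPM shrinks fold changes at low levels, so these medians are not on the edgeR scale. In edgeR, leaving out libraries gave medians from -0.16 to -0.025 for all and from -0.15 to 0.11 for the lid. They ran from -0.18 to 0.10 for activators and inhibitor and from -0.23 to 0.15 for the chaperones. The cause was not tested. With the replicate number as a block, edgeR called 0 genes and the members' median was -0.10. Deviations of libraries with the same number correlated at -0.04, 0.08, 0.16 and -0.17, and only number 3 correlated best with its own. Whether libraries with the same number share more than the number was not tested, and these values cannot decide it. In paired sign-flip tests the ratio p was 0.125, 0.875 and 0.75 (exact, 0.125 being the smallest possible). Low counts, 2 to 18 per library, limit what can be seen of the inducible genes.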
